A study of Mus musculus with 11 samples.

Results

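The collagen genes other than those of type IV were followed through maps of open chromatin from the mouse esophagus. They are the 38 protein-coding genes, of 21631 on chromosomes 1 to 19 and X, whose symbol has the collagen form Col, number, a, number, with the chains of the basement membrane network (type IV) left out. Open chromatin was mapped by ATAC-seq, in which a transposase cuts accessible DNA and leaves sequencing adapters there. Each library is a deposited list of peaks, the stretches where cuts pile up. The lists of all 11 libraries were merged into 124941 regions, and a region was called open in a library that had a peak overlapping it by at least 1 bp. A gene's locus is the set of regions that lie nearest to its body within 100 kb. The collagen loci hold 305 regions, a median of 6 per gene and at most 22.

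The SmoM2-Sox9cKO group (3 libraries) came from mice of genotype Krt5-SmoM2-Sox9fl/fl, whose strain the labels do not give. Its cells were sorted for high EpCam, an adhesion protein of epithelial cells. The SmoM2 group (3 libraries) came from Krt5-SmoM2 mice of the CD1 strain, also sorted for high EpCam. SmoM2 is a form of the Hedgehog signal transducer Smoothened that signals without ligand, and Krt5 is a keratin of basal squamous cells. As the driver it ties the transgene to Krt5-active cells or their descendants, and the labels say neither how it acts nor what deletes the floxed Sox9. The WT group (3 libraries) came from wild-type CD1 mice whose cells were sorted for low EpCam. The Embryo group (2 libraries) came from esophagus at embryonic day 13 of Krt8YFP mice, sorted for YFP. Krt8 is a keratin of simple epithelium. Genotype and EpCam gate differ together between WT and both SmoM2 groups, so their parts in a difference cannot be told apart. The labels give no age for the 9 non-Embryo libraries and do not tie libraries to animals, and p-values therefore reflect only the spread between these libraries, which may be technical.

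Collagens are trimers of alpha chains wound into a triple helix. Fibrillar collagens build the fibres of connective tissue, the FACIT group decorates their surface, and type VI forms beaded filaments around cells. Most collagen in the wall of the esophagus is made by fibroblasts and not by its epithelium. Basal keratinocytes make collagens of their own for attachment: type XVII is a membrane-spanning part of the hemidesmosome, and type VII forms the anchoring fibrils below the basement membrane. SOX9, a transcription factor, is known in cartilage for driving collagen genes such as Col2a1, Col9a1 and Col11a2. An open region is no measure of transcription, and in bulk libraries a smaller share of cells with an open region and fewer cuts per cell cannot be told apart.

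Lists of the 9 non-Embryo libraries held 69026 to 87910 intervals, and those of the Embryo libraries 24902 and 14255. No read numbers came with these lists, and their depth is unknown. Sox9, the gene targeted in SmoM2-Sox9cKO, had 10, 12 and 9 open regions at its locus in SmoM2-Sox9cKO, 9, 10 and 11 in SmoM2, 11, 7 and 9 in WT and 3 and 1 in Embryo (adjusted p = 0.816 for SmoM2-Sox9cKO against SmoM2, limma). Peak lists do not show whether an exon was deleted, so this is no check of the knockout. Intervals at 4 Y-linked genes numbered 8, 10 and 0 in SmoM2-Sox9cKO, 9, 9 and 9 in SmoM2, 5, 0 and 0 in WT and 0 and 0 in Embryo, so the libraries of a group did not all match in this respect. Regions at all 14 genes of a list of basal squamous markers were open in some library of every non-Embryo group, and Krt5 and Dsg3 were at 0 in both Embryo libraries. In the non-Embryo groups the same held for all 12 genes of an endothelial list and all 7 of a simple epithelial list. Such open regions therefore do not tell which cells were sorted.

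Summed over the 38 collagen genes, the non-Embryo groups overlapped in the number of open regions. Over the 38 genes, 180, 172 and 187 regions were open in SmoM2-Sox9cKO, 161, 157 and 180 in SmoM2, 142, 167 and 174 in WT and 33 and 18 in Embryo. The means were 180.0 ± 7.51 in SmoM2-Sox9cKO, 166 ± 12.3 in SmoM2 and 161 ± 16.8 in WT (SD, n = 3 each). Of the 305 regions, 219 (71.8%) lay inside a gene body, against 60.5% of all regions assigned to a gene. Close to a gene end, within 1 kb, lay 32 regions (10.5%, against 15.0% of all those assigned). The openness of the locus was very uneven among the genes. Col18a1, whose product is a basement membrane proteoglycan, had 16, 17 and 17 open regions in SmoM2-Sox9cKO, 14, 14 and 16 in SmoM2, 15, 16 and 18 in WT and 2 and 1 in Embryo, while Col10a1, the collagen of hypertrophic cartilage, had none in any library.

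Loci were tested with limma on the log2 share of a library's open regions that falls in the locus, and p-values were adjusted over the 15365 loci that averaged 1 open region or more in the 9 non-Embryo libraries. Of the 38 collagen loci, 31 passed this filter. Col1a2, Col3a1, Col5a2, Col6a2, Col9a1, Col10a1 and Col11a1 did not, and they are described by their counts alone. Of these, Col5a2, for a chain of type V, had 1, 0 and 0 open regions in SmoM2-Sox9cKO, 2, 0 and 1 in SmoM2 and none in WT or Embryo. Col6a2, for a chain of type VI, had a single open region in every non-Embryo library but SmoM2 2 and in Embryo 1.

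**Figure D1:**
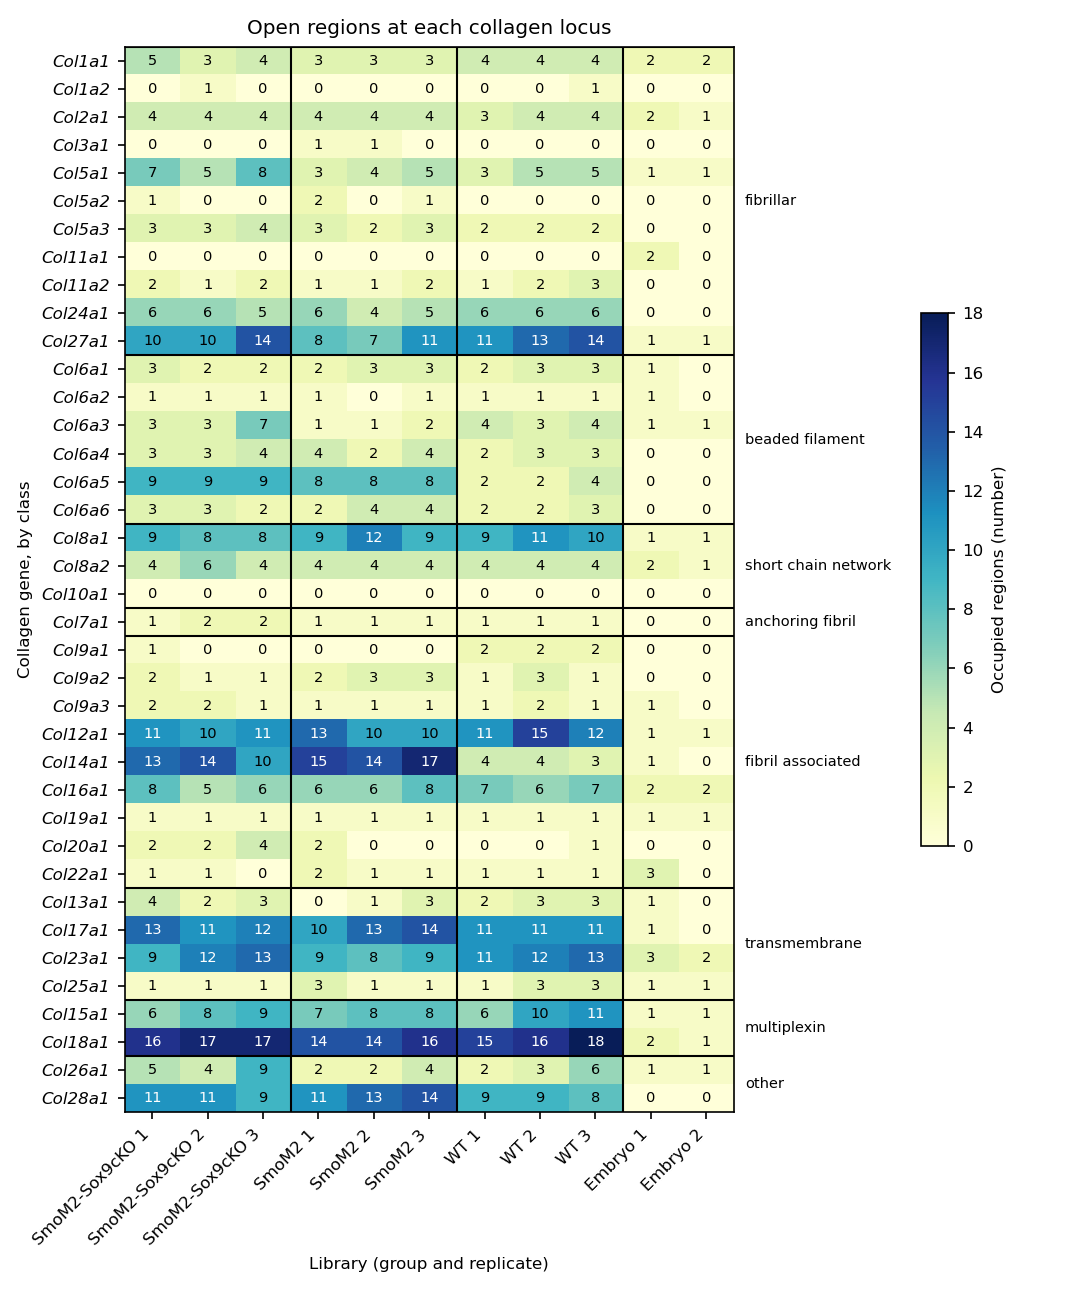
Open regions per collagen locus (rows, grouped by structural class) in each of the 11 libraries (columns, ordered SmoM2-Sox9cKO, SmoM2, WT, Embryo), with the count printed in each cell. Col14a1 and Col6a5 are dark in the 6 libraries with SmoM2 and pale in WT, and the Embryo columns are pale throughout.

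The comparison of SmoM2 with WT asks what differs between EpCam-high cells with active Smoothened and EpCam-low wild-type cells. Col14a1 and Col6a5 had more open regions in SmoM2, and Col6a3, Col23a1 and Col27a1 had fewer. That is 2 of 31 tested loci higher (6.45%) and 3 lower (9.68%), against 5.2% and 5.75% of all tested loci, so the collagen loci were called about as often as loci in general. At an unadjusted p under 0.05 (limma) the counts were 3 of 31 higher and 8 of 31 lower, against 10.4% and 14.3% of all tested loci. In simulated data the same fit called more unchanged loci than the nominal rate. The median log2 change was -0.13 for the collagen loci and -0.12 for all tested loci. The value for all loci is set by the scaling to library totals, and without scaling it was 0.0.

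Col14a1 encodes a FACIT collagen that binds the surface of fibrils. Its locus had 13, 14 and 10 open regions in SmoM2-Sox9cKO, 15, 14 and 17 in SmoM2, 4, 4 and 3 in WT and 1 and 0 in Embryo. Every library with SmoM2 lay above every WT library. The log2 change was 1.81 ± 0.15 (SE) for SmoM2 against WT (adjusted p = 0.000176, limma) and 1.56 ± 0.15 for SmoM2-Sox9cKO against WT (adjusted p = 0.000519). These comparisons share the WT libraries. Peaks at the locus covered 9.06 ± 1.23 kb in SmoM2-Sox9cKO, 10.5 ± 0.759 kb in SmoM2 and 2.72 ± 0.218 kb in WT (SD, n = 3 each), so the covered length followed the count.

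The increase at Col14a1 (chromosome 15, 55307644 to 55520803, GRCm38) was spread along the gene. Of its 20 regions, 10 were open in all 3 SmoM2 libraries and no WT library, a pattern called gained below, and 6 were gained in SmoM2-Sox9cKO. The gained region whose peaks ranked best by p-value within their lists, chr15:55492684-55493904, lies inside the gene, 185.6 kb from its lower coordinate. The authors' fold enrichment of its peaks was 12.0, 13.3 and 10.9 in SmoM2-Sox9cKO and 11.7, 10.1 and 11.9 in SmoM2, and there was no peak in WT or Embryo. Further gained regions lay at chr15:55357246-55358249, chr15:55456020-55456898 and chr15:55457613-55458388 inside the gene and at chr15:55521985-55522676 beyond its upper end. The region over the lower end of the gene, chr15:55306234-55309006, was different: it was open in all 9 non-Embryo libraries and in 1 Embryo library, with fold enrichments of 4.46, 5.45 and 4.61 in SmoM2-Sox9cKO, 5.17, 4.57 and 4.07 in SmoM2 and 4.59, 4.59 and 4.31 in WT.

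Col6a5 encodes a chain that can join type VI collagen. Its locus had 9, 9 and 9 open regions in SmoM2-Sox9cKO, 8, 8 and 8 in SmoM2, 2, 2 and 4 in WT and 0 and 0 in Embryo. The groups with SmoM2 did not overlap WT. Its log2 change was 1.36 ± 0.20 (SE) for SmoM2 against WT (adjusted p = 0.00336, limma) and 1.58 ± 0.20 for SmoM2-Sox9cKO against WT (adjusted p = 0.00258). Counts were identical within each group with SmoM2, where only the list totals gave a spread, while WT counts varied. The fit shares 1 spread over the 3 groups, and p-values can come out small where counts within groups are identical.

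Of the 10 regions at Col6a5 (chromosome 9, 105856070 to 105962463), 4 were gained in SmoM2 and 5 in SmoM2-Sox9cKO. The best ranked, chr9:105917079-105917844 inside the gene, had fold enrichments of 10.6 to 15.0 in SmoM2-Sox9cKO and 9.95 to 11.6 in SmoM2 and no peak in WT or Embryo. Others lay at chr9:105892421-105893135 inside the gene and at chr9:105970715-105971326 and chr9:105963757-105964646 beyond its upper end. The related chains next to it on the chromosome gave smaller log2 changes for SmoM2 against WT, 0.12 ± 0.23 at Col6a4 (adjusted p = 0.706, limma) and 0.28 ± 0.25 at Col6a6 (adjusted p = 0.451). The difference between the 3 neighbours was not tested.

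**Figure D2:**
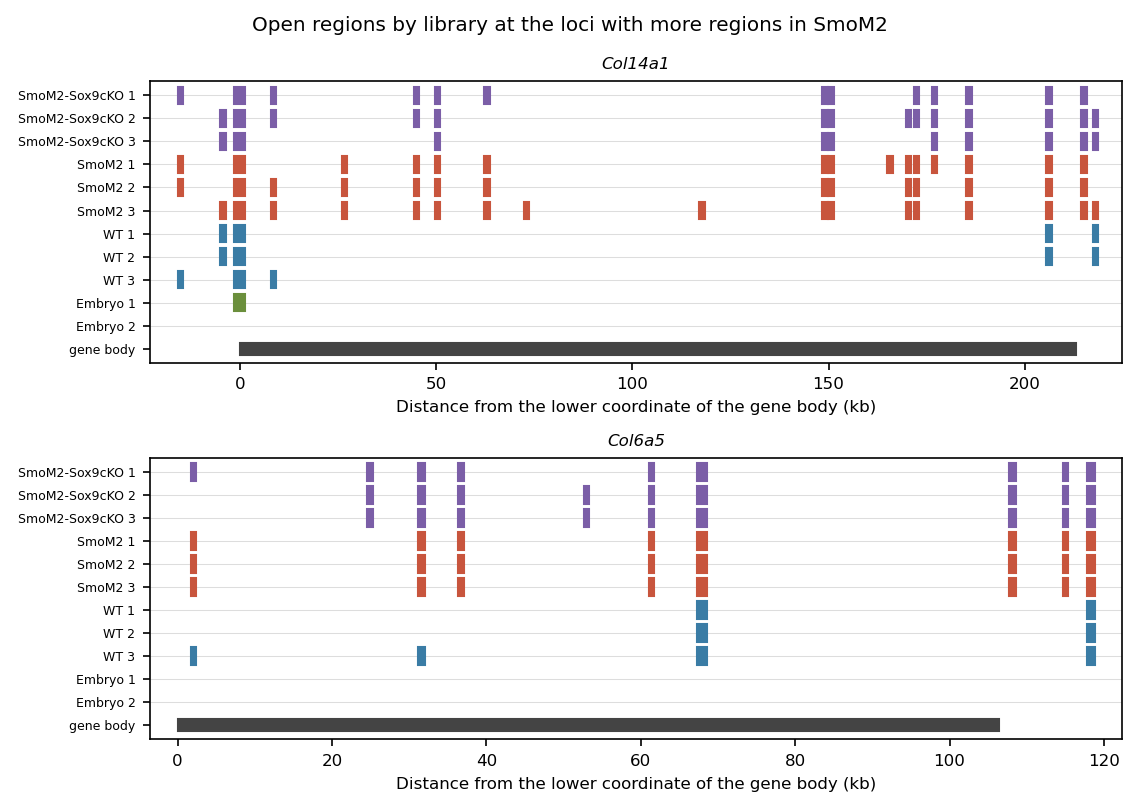
Maps of the Col14a1 and Col6a5 loci, with distance along the chromosome in kb from the gene's lower coordinate on the horizontal axis, the gene body as a bar and 1 row per library (SmoM2-Sox9cKO, SmoM2, WT, Embryo from top to bottom). Marks are open regions, with narrow ones widened so that they show and close ones running together; the 6 libraries with SmoM2 have marks along the bodies where the WT rows are empty.

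Col6a3 encodes an obligatory chain of classical type VI collagen. It had 3, 3 and 7 open regions in SmoM2-Sox9cKO, 1, 1 and 2 in SmoM2, 4, 3 and 4 in WT and 1 and 1 in Embryo. SmoM2 lay below the other non-Embryo groups with no overlap. The log2 change was -1.34 ± 0.33 (SE) for SmoM2 against WT (adjusted p = 0.0332, limma). It was 1.40 ± 0.33 for SmoM2-Sox9cKO against SmoM2, which did not pass the threshold (adjusted p = 0.121). A region inside the gene, chr1:90838321-90839021, was open in 3 of 3 SmoM2-Sox9cKO, 0 of 3 SmoM2 and 3 of 3 WT libraries, with low fold enrichments of 2.58, 2.38 and 3.64 in SmoM2-Sox9cKO and 3.42, 3.53 and 2.96 in WT.

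Col23a1 encodes a membrane-spanning collagen. It had 9, 12 and 13 open regions in SmoM2-Sox9cKO, 9, 8 and 9 in SmoM2, 11, 12 and 13 in WT and 3 and 2 in Embryo. All SmoM2 libraries lay below all WT libraries. This gave a log2 change of -0.57 ± 0.15 (SE) for SmoM2 against WT (adjusted p = 0.0464, limma). Regions at chr11:51330161-51330627 and chr11:51493652-51494843, both inside the gene, were open in 0 of 3 SmoM2 and 3 of 3 WT libraries, the pattern called lost below.

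Col27a1 encodes a fibrillar collagen of cartilage. It had 10, 10 and 14 open regions in SmoM2-Sox9cKO, 8, 7 and 11 in SmoM2, 11, 13 and 14 in WT and 1 and 1 in Embryo. SmoM2 and WT overlapped at 11. Its log2 change was -0.66 ± 0.17 (SE) for SmoM2 against WT (adjusted p = 0.0369, limma). Lost regions lay inside the gene at chr4:63290912-63291648 and chr4:63288418-63288829, and neither was open in a SmoM2-Sox9cKO library.

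The 2 loci called higher passed the test in all 22 alternative settings, while the 3 called lower did not. Without scaling to the library total none of them passed (adjusted p = 0.108 for Col6a3, 0.127 for Col23a1 and 0.207 for Col27a1), and with intervals at Y-linked genes, present or absent, as a covariate none did either (adjusted p = 0.178, 0.233 and 0.196 in the same order). Leaving out 1 library moved the adjusted p between 0.00594 and 0.105 for Col6a3, and the call was lost without WT 1, WT 3, SmoM2 1 or SmoM2 2. For Col23a1 it ranged from 0.00523 to 0.127, and the call was lost without any 1 of the WT or SmoM2 libraries or SmoM2-Sox9cKO 2. For Col27a1 it ranged from 0.0107 to 0.107, and the call was lost without any 1 of the WT libraries, SmoM2 1 or SmoM2 2. Of the 22 settings, Col6a3 was called in 16, Col27a1 in 12 and Col23a1 in 8. At Col23a1 the call was also lost at −log10 q of at least 5, with lists of equal length and with no filter. It was lost too with 0.25 added to each count in place of 0.5. The Col27a1 call was also lost at −log10 q of at least 5 (adjusted p = 0.293) and with 50% of a region covered (adjusted p = 0.124). On covered length its log2 change was -0.12 ± 0.13 (adjusted p = 0.599), and peaks covered 7.29 ± 0.382 kb in SmoM2-Sox9cKO, 6.73 ± 1.78 kb in SmoM2 and 7.11 ± 1.07 kb in WT (SD, n = 3 each).

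**Figure D3:**
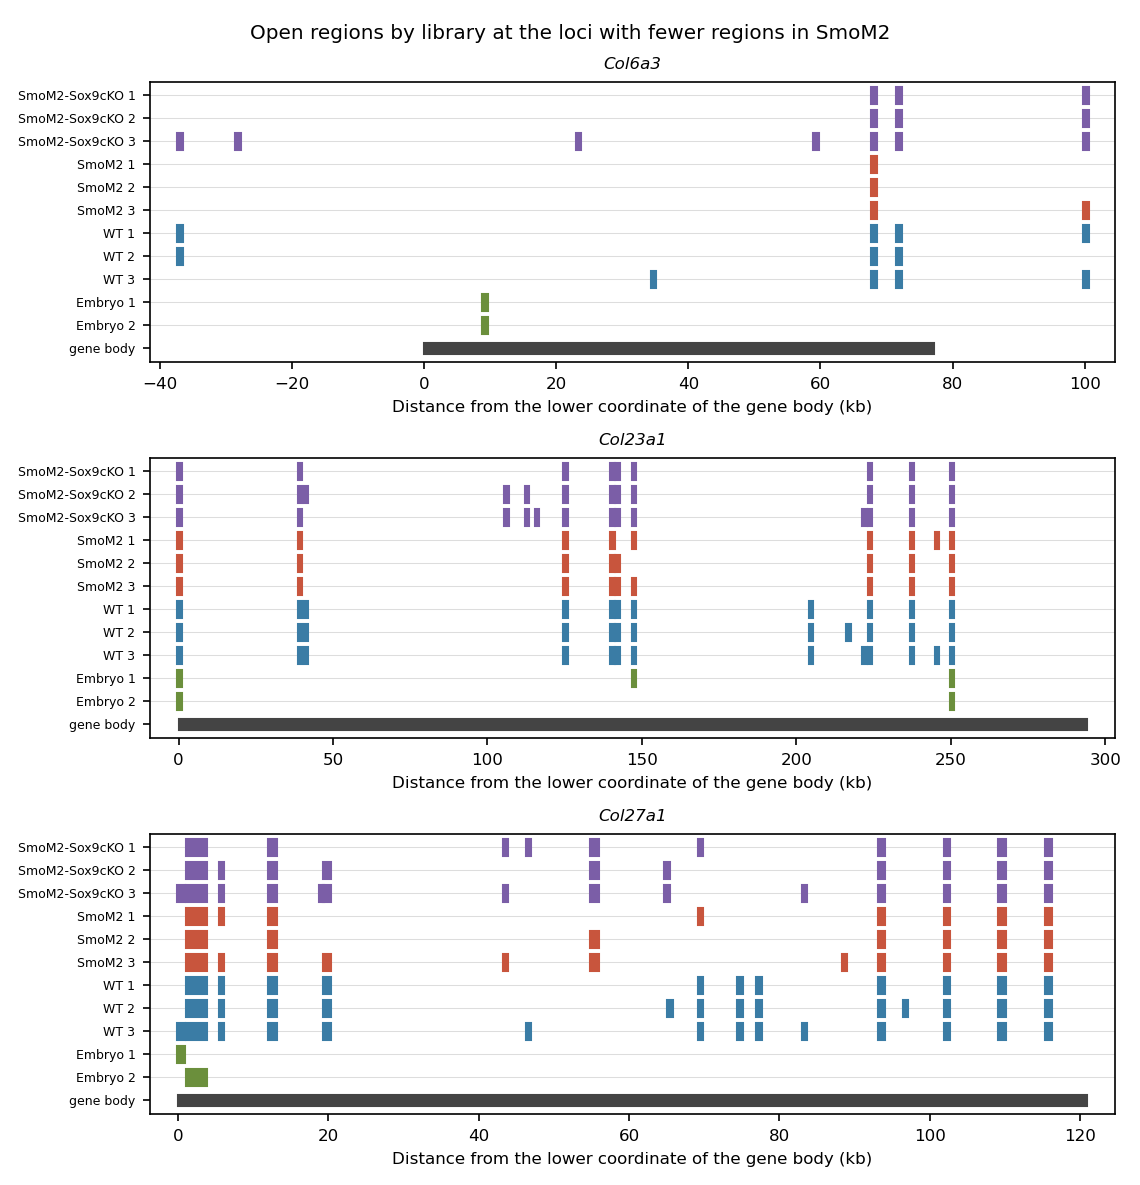
Maps of the Col6a3, Col23a1 and Col27a1 loci, called lower in SmoM2 against WT, drawn as distance in kb from the gene's lower coordinate, with the gene body as a bar and 1 row per library (SmoM2-Sox9cKO, SmoM2, WT, Embryo from top to bottom). Marks are open regions, with narrow ones widened so that they show and close ones running together; at Col6a3 the SmoM2 rows hold 1 or 2 marks and the WT rows 3 or 4.

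The main fibrillar chains of connective tissue had few open regions. Col1a1 encodes the alpha-1 chain of type I collagen. It had 5, 3 and 4 open regions in SmoM2-Sox9cKO, 3, 3 and 3 in SmoM2, 4, 4 and 4 in WT and 2 and 2 in Embryo, with a log2 change of -0.49 ± 0.15 (SE) for SmoM2 against WT (adjusted p = 0.0792, limma). A region near the upper end of the gene, chr11:94952134-94952810, was gained in both groups with SmoM2, with fold enrichments of 6.36, 4.23 and 3.72 in SmoM2-Sox9cKO and 4.31, 4.64 and 7.42 in SmoM2. A region 22.4 kb below the gene, chr11:94913429-94914255, was lost in both. Col1a2, for the partner chain of type I, had a single open region in SmoM2-Sox9cKO 2 and in WT 3 and none in the other 9 libraries. Col3a1, the type III chain of pliable tissue, had a single open region in SmoM2 1 and SmoM2 2 and none elsewhere.

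Regions were gained and lost also at Col8a1, a chain of the short-chain network collagen of type VIII. It had 9, 8 and 8 open regions in SmoM2-Sox9cKO, 9, 12 and 9 in SmoM2, 9, 11 and 10 in WT and 1 and 1 in Embryo. A region inside the gene at chr16:57642862-57643741 was gained in both groups with SmoM2, with fold enrichments of 9.67, 12.3 and 6.85 in SmoM2-Sox9cKO and 8.97, 6.88 and 9.85 in SmoM2. Another inside the gene, chr16:57688888-57689538, was lost in both and had fold enrichments of 4.15, 5.63 and 4.03 in WT. Col5a3, a minor fibrillar chain that joins type I and III fibres, gained a region at chr9:20776169-20776921 in both groups with SmoM2. It had 3, 3 and 4 open regions in SmoM2-Sox9cKO, 3, 2 and 3 in SmoM2, 2 in each WT library and 0 in both Embryo libraries. These counts gave a log2 change of 0.20 ± 0.18 (SE) for SmoM2 against WT (adjusted p = 0.44, limma) and 0.54 ± 0.18 for SmoM2-Sox9cKO against WT (adjusted p = 0.101). Col5a3 was called higher in both comparisons at −log10 q of at least 5, with 50% of a region covered and on covered length. Its log2 changes there were 0.74, 1.00 and 0.82 for SmoM2 against WT (adjusted p = 0.0323, 0.015 and 0.0157) and 1.22, 1.33 and 1.05 for SmoM2-Sox9cKO against WT (adjusted p = 0.00423, 0.00682 and 0.00626). In these settings, and without SmoM2 1, the fibrillar chain Col24a1 was called lower in SmoM2 against WT. Col24a1 had 6, 6 and 5 open regions in SmoM2-Sox9cKO, 6, 4 and 5 in SmoM2, 6 in each WT library and 0 in both Embryo libraries. Its main log2 change was -0.38 ± 0.14 for SmoM2 against WT (adjusted p = 0.114, limma).

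The collagens of the basal keratinocyte did not pass the test in any comparison. Col17a1 (type XVII) had 13, 11 and 12 open regions in SmoM2-Sox9cKO, 10, 13 and 14 in SmoM2, 11, 11 and 11 in WT and 1 and 0 in Embryo. Its log2 change was 0.02 ± 0.12 (SE) for SmoM2 against WT (adjusted p = 0.894, limma). Among its 18 regions, chr19:47700834-47701694 upstream of the gene was open in 3 of 3 SmoM2-Sox9cKO, 3 of 3 SmoM2, 0 of 3 WT and 1 of 2 Embryo libraries. Col7a1 (type VII) had 1, 2 and 2 open regions in SmoM2-Sox9cKO, 1 in each SmoM2 library, 1 in each WT library and 0 in both Embryo libraries. Its region over the start site, chr9:108952931-108953810, was open in all 9 non-Embryo libraries, and the log2 change for SmoM2-Sox9cKO against SmoM2 was 0.55 ± 0.22 (adjusted p = 0.368).

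Several cartilage chains are known targets of SOX9 in chondrocytes. Col2a1 and Col11a2 were tested and did not pass in any comparison, while Col9a1 and Col11a1 had too few open regions for the test. Col2a1 had 4 open regions in each SmoM2-Sox9cKO and each SmoM2 library, 3, 4 and 4 in WT and 2 and 1 in Embryo. Col11a2 had 2, 1 and 2 open regions in SmoM2-Sox9cKO, 1, 1 and 2 in SmoM2, 1, 2 and 3 in WT and 0 in both Embryo libraries. Col9a1 had 1, 0 and 0 in SmoM2-Sox9cKO, 0 in each SmoM2 library, 2 in each WT library and 0 in both Embryo libraries. Its region at chr1:24139826-24140450, 37.5 kb below the gene, was lost in SmoM2. Where no filter was set, Col9a1 was called lower in SmoM2 against WT (adjusted p = 0.00326, limma) and in SmoM2-Sox9cKO against WT (adjusted p = 0.0152). It was called lower in both also where only the 6 libraries compared were fitted, and there it reached the filter through WT alone. Col11a1 had no open region in any non-Embryo library and 2 and 0 in Embryo.

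By structural class, medians of the log2 change for SmoM2 against WT ran from -0.55 over the 4 membrane-spanning collagens and -0.38 over the 7 tested fibrillar chains to 0.12 over the 5 tested type VI chains. The fibrillar chains together had 38, 33 and 41 open regions in SmoM2-Sox9cKO, 31, 26 and 34 in SmoM2, 30, 36 and 39 in WT and 8 and 5 in Embryo, and these groups overlapped. The 9 FACIT genes had 41, 36 and 34 in SmoM2-Sox9cKO, 42, 36 and 41 in SmoM2, 28, 34 and 29 in WT and 9 and 4 in Embryo. SmoM2 and WT did not overlap in that sum, but this rests on Col14a1. The other 8 FACIT genes had 28, 22 and 24 in SmoM2-Sox9cKO, 27, 22 and 24 in SmoM2 and 24, 30 and 26 in WT, and these overlapped. Col28a1, for a collagen of peripheral nerve, had 11, 11 and 9 open regions in SmoM2-Sox9cKO, 11, 13 and 14 in SmoM2, 9, 9 and 8 in WT and 0 in both Embryo libraries. SmoM2 lay above WT at Col28a1, but the log2 change of 0.39 ± 0.12 (SE) did not pass (adjusted p = 0.0613, limma). Among the remaining tested members with no call, log2 changes for SmoM2 against WT were -1.30 ± 0.55 at Col13a1 (adjusted p = 0.18) and 0.53 ± 0.32 at Col9a2 (adjusted p = 0.363). Col19a1 had 1 open region in every library, but it lies 26.0 kb outside the gene and is 4576 bp wide. Its fold enrichments were low, 2.27 to 3.29, although it ranked near the top of the lists by p-value. It is thus no sign of an open Col19a1 gene.

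Counted over single regions, 22 of the 305 collagen regions were gained in SmoM2 against WT (7.21%, against 6.91% of all regions) and 12 were lost (3.93%, against 3.11%). The gains sat at few genes: 10 at Col14a1, 4 at Col6a5, 2 each at Col17a1 and Col28a1, and 1 each at Col12a1, Col5a3, Col1a1 and Col8a1. Outside Col14a1 and Col6a5, 8 of 275 regions were gained (2.91%) and 12 lost (4.36%). These loci were left out because they held the most gains, so the change in both shares is fixed by that choice. The losses were scattered over 10 genes, with 2 each at Col23a1 and Col27a1. A two-sided exact permutation test of 3 libraries against 3 cannot go below p = 0.1 for 1 region, so these are counts without a test.

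**Figure D4:**
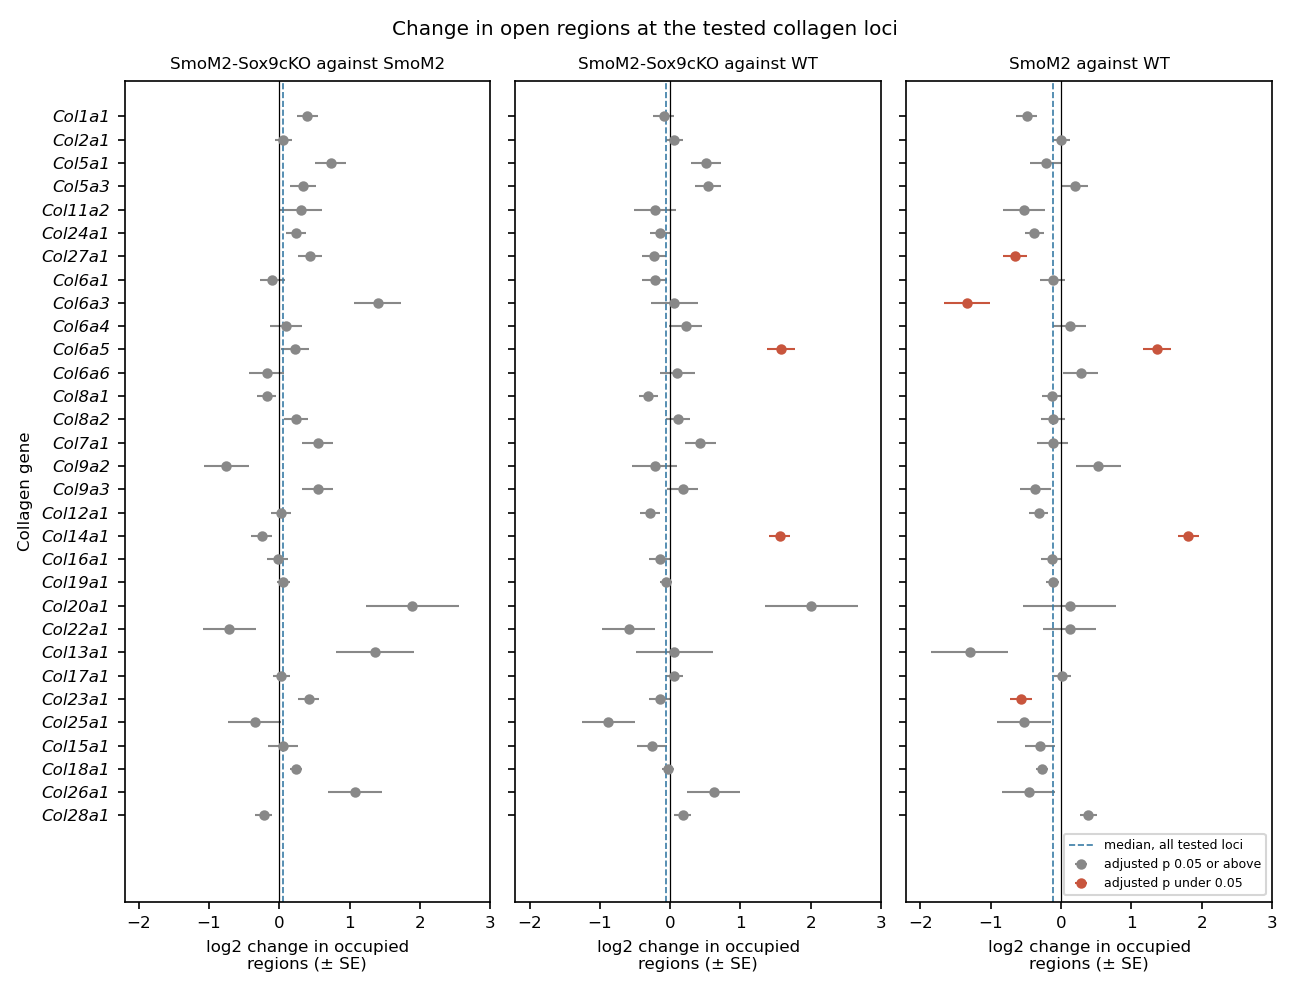
Log2 change in open regions (horizontal axis, with SE bars) at the 31 tested collagen loci in the comparisons of SmoM2-Sox9cKO with SmoM2, SmoM2-Sox9cKO with WT and SmoM2 with WT, with red points for loci with adjusted p under 0.05 and a dashed line at the median of all tested loci. Col14a1 and Col6a5 stand to the right in both comparisons with WT, and no point is red in SmoM2-Sox9cKO against SmoM2. Col20a1 and Col22a1 are drawn too, although each reached the filter through a single group.

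Start sites were read through 300-base windows, 250 bases before and 50 after each RefSeq start (GRCm38.p6), which were available for 30 of the 38 genes in 33 windows. Col5a2, Col1a1, Col14a1, Col22a1, Col2a1, Col9a3, Col26a1 and Col12a1 had none. Of the 33 windows, 9 (27.3%) were open in all 9 non-Embryo libraries, against 39.6% of all 32619 windows, and 12 (36.4%) were open in no library, against 48.4% of all. Both Embryo libraries had 3 open (9.09%, against 26.6%), those of Col23a1, Col25a1 and Col5a1. Among the 33, 5 (15.2%, against 5.73% of all) were open in all 9 non-Embryo libraries and in no Embryo library: those of Col17a1, Col7a1, Col8a1, Col8a2 and 1 of the 2 windows of Col18a1. The Embryo lists are much shorter, which bears on this share.

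A single collagen window was lost in SmoM2 against WT (3.03%, against 0.377% of all) and none was gained (0.451% of all). It belongs to Col15a1, for a basement membrane collagen, and the region over it, chr4:47207832-47208912, was open in 1 of 3 SmoM2-Sox9cKO, 0 of 3 SmoM2 and 3 of 3 WT libraries. Its fold enrichment was 3.27 in SmoM2-Sox9cKO 3, the 1 open library of that group, and 4.03, 9.09 and 5.15 in WT. The count of the whole Col15a1 locus did not pass (log2 change -0.30 ± 0.21 SE, adjusted p = 0.37, limma).

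Windows are printed for the genes whose start sites carry these results: both attachment collagens, the window lost in SmoM2, that of Col6a5, and that of Col11a1, open in Embryo 1 alone. The Col6a5 window was open in no library although the locus gained regions. It lies inside the gene body, and no window covered the body's upper end at 105962463. The printed windows are credited to RefSeq (GRCm38.p6) and run 5′ to 3′ on the gene's strand: Col17a1 at chr19:47691993-47692292 (minus), Col7a1 at chr9:108953336-108953635 (plus), Col15a1 at chr4:47207762-47208061 (plus), Col6a5 at chr9:105960594-105960893 (minus) and Col11a1 at chr3:114030290-114030589 (plus). Capitals mark letter matches to the searched motifs at any position, here TATAAA, or CCAAT in reverse (ATTGG).
Col17a1: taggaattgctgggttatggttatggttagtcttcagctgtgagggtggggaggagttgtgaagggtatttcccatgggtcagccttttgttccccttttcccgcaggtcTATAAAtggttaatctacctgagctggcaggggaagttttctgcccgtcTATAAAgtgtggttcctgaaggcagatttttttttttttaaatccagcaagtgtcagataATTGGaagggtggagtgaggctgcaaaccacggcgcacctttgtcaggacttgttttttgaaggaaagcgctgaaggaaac
Col7a1: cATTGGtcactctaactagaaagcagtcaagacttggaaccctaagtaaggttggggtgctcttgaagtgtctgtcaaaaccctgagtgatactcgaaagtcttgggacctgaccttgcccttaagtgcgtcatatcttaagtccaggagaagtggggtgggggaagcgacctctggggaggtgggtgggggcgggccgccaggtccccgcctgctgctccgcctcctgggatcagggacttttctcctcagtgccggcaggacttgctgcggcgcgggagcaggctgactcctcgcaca
Col15a1: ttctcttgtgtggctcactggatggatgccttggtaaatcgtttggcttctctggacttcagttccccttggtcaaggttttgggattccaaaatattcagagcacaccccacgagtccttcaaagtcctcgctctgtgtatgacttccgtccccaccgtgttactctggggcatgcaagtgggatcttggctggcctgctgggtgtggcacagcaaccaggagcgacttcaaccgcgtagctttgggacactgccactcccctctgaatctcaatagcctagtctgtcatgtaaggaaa
Col6a5: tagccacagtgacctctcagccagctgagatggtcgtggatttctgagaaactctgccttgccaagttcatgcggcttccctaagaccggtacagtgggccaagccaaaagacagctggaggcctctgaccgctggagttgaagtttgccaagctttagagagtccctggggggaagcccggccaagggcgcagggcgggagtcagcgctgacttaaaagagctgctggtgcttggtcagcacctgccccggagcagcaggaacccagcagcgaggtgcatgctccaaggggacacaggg
Col11a1: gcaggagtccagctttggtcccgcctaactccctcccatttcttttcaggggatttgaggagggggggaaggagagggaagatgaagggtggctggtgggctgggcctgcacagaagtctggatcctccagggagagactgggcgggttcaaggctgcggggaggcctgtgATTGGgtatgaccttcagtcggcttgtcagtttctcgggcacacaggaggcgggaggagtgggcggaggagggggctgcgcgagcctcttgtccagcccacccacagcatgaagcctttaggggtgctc
Motifs were searched on both strands as plain letters: AACAAT for SOX factors, GACCACCCA for GLI, the factors of Hedgehog signalling, TGANTCA for AP-1, CCAAT, and TATAAA. The Col17a1 window held TATAAA at 2 places and CCAAT in reverse (ATTGG), and the Col7a1 and Col11a1 windows held 1 ATTGG each. The Col15a1 and Col6a5 windows held none of the 5 motifs. Over the 33 collagen windows, AACAAT was found in 1 (10.6% of all windows), GACCACCCA in 0 (0.254%), TGANTCA in 1 (7.85%), CCAAT in 10 (37.6%) and TATAAA in 5 (13.7%). A match is a run of letters and not a measured site.

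**Figure D5:**
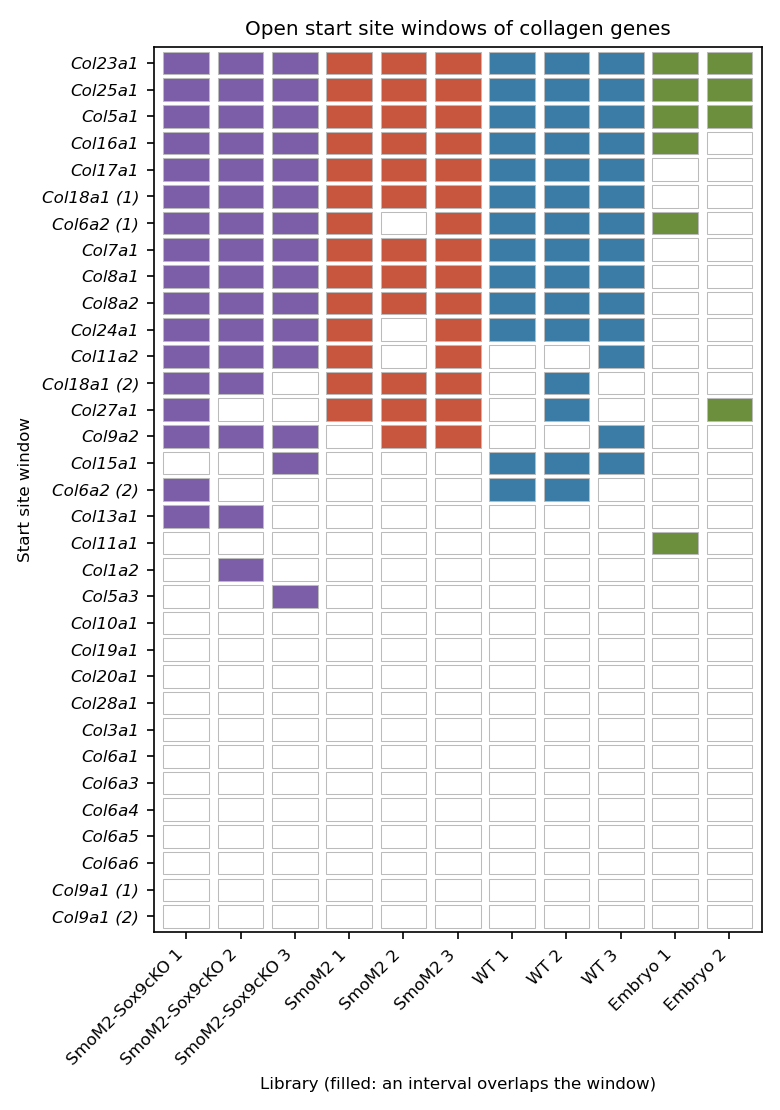
Start-site windows of the collagen genes (rows) in each library (columns, ordered SmoM2-Sox9cKO, SmoM2, WT, Embryo); a filled cell is a window overlapped by a peak. The rows of Col17a1 and Col7a1 are filled in all 9 non-Embryo libraries and empty in Embryo, and the row of Col15a1 is filled in all 3 WT libraries and in no SmoM2 library.

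SmoM2-Sox9cKO against SmoM2 compares Krt5-SmoM2 groups with and without the floxed Sox9 genotype, at the same EpCam gate. The strain of SmoM2-Sox9cKO is not given, and SmoM2-Sox9cKO 3 had no interval at the Y-linked genes, unlike every SmoM2 library. A difference here therefore cannot be assigned to Sox9 alone. No collagen locus passed the test in either direction, against 0.423% of all tested loci called higher and 0.43% called lower (0.853% in all). At an unadjusted p under 0.05, limma gave 11 of the 31 collagen loci higher and 1 lower, against 6.81% and 4.93% of all tested loci. The 11 include Col20a1, which reached the filter through SmoM2-Sox9cKO alone and whose test is not read. Also without Col20a1, the share higher at this level was above that of all tested loci. The collagen loci were not tested as a set. The median log2 change was 0.22 over the collagen loci and 0.06 over all tested loci. The value for all loci is again set by the scaling, and without scaling it was 0.0. Groups did not overlap at 2 of the 31 tested loci (6.45%, against 5.6% of all tested loci), Col6a3, given above, and Col6a5, with a log2 change of 0.22 ± 0.20 (SE, adjusted p = 0.803). At Col14a1 the log2 change was -0.25 ± 0.15 (adjusted p = 0.614). Neither locus called against WT in both groups with SmoM2 thus passed the test between these groups. At Col6a5 the counts were 9, 9 and 9 in SmoM2-Sox9cKO and 8, 8 and 8 in SmoM2. They did not vary within these groups, and the SE there draws also on the WT counts through the shared fit.

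Single regions changed little between these groups. Gained in SmoM2-Sox9cKO were 4 collagen regions (1.31%, against 0.678% of all regions), and 1 was lost (0.328%, against 1.34%). Besides the Col6a3 region that was also open in WT, the gained ones were chr9:105880624-105881193 in Col6a5, chr10:77069972-77070613 in Col18a1 and chr2:180597914-180598675 at the lower end of Col9a3. The Col6a5 region had fold enrichments of 3.87, 7.56 and 6.25 in SmoM2-Sox9cKO and no peak in any other library. The Col9a3 region, at a gene for a FACIT chain of cartilage, had 3.04, 3.6 and 2.77 in SmoM2-Sox9cKO, and it was open in 0 of 3 SmoM2, 1 of 3 WT and 1 of 2 Embryo libraries. No start-site window was gained or lost (0.169% and 0.095% of all windows), nor was any in SmoM2-Sox9cKO against WT (0.417% and 0.258%). The lost region was chr15:55333564-55334006 inside Col14a1, open in 0 of 3 SmoM2-Sox9cKO, 3 of 3 SmoM2 and 0 of 3 WT libraries.

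SmoM2-Sox9cKO against WT gave Col14a1 and Col6a5 higher and no collagen locus lower (6.45% and 0.0% of 31, against 3.99% and 3.42% of all tested loci, 7.41% in all). At an unadjusted p under 0.05, limma gave 5 of the 31 collagen loci higher and 1 lower, against 10.1% and 11.3% of all tested loci. The 5 include Col20a1. Col20a1, for a FACIT collagen, had 2, 2 and 4 open regions in SmoM2-Sox9cKO, 2, 0 and 0 in SmoM2, 0, 0 and 1 in WT and 0 in both Embryo libraries. The SmoM2-Sox9cKO libraries lay above all WT libraries but not above all SmoM2 libraries. Col20a1 reached the filter through SmoM2-Sox9cKO alone (mean 0.5 in the other 6 libraries), so its test is not read; Col22a1 reached it through SmoM2 alone. Of single regions, 18 (5.9%, against 4.26% of all) were gained, 6 of them at Col14a1 and 5 at Col6a5, and 8 (2.62%, against 2.69%) were lost. Col6a3, Col23a1 and Col27a1, the loci lower in SmoM2, had log2 changes of 0.06 ± 0.33, -0.15 ± 0.15 and -0.23 ± 0.17 in SmoM2-Sox9cKO against WT, none of them past the threshold (adjusted p = 0.886, 0.709 and 0.539 in the same order).

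In the Embryo libraries, 14 collagen regions were open in both (4.59%, against 9.84% of all regions), 23 in 1 of them (7.54%, against 11.2%) and 268 in none (87.9%, against 79.0%). With lists this short, a region without a peak was not detected and is not shown to be closed. Regions open in both included those over the ends of Col5a1, Col25a1, Col23a1 and Col2a1, and a region within 1 kb of an end of Col1a1. At Col1a1 the region chr11:94936710-94938051 was open in every library of every group. In all 11 libraries 12 collagen regions were open (3.93%, against 8.45% of all), the distant region of Col19a1 among them. Open in an Embryo library and in no other group were 5 regions (1.64%, against 3.7%). Of these, chr1:90775689-90776274 in Col6a3 was open in both Embryo libraries (0.328% of the collagen regions, against 0.404% of all), with fold enrichments of 5.87 and 3.63. The others were open in 1 Embryo library and lay at Col6a1, Col22a1 and, with 2, Col11a1. The region over the Col11a1 start, chr3:114030221-114030681, had a fold enrichment of 4.59 in Embryo 1, and its start-site window was the 1 collagen window (3.03%, against 0.769% of all) open in Embryo alone.

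Genes that make, bind or sense collagen were read from 3 lists. Of 30 genes for maturation and crosslinking, 26 were tested, and in SmoM2 against WT 1 was higher and 2 were lower (median log2 change -0.12), against 5.2% and 5.75% of all tested loci. Pcolce2, an enhancer of procollagen cleavage, had 8, 9 and 8 open regions in SmoM2-Sox9cKO, 9, 8 and 9 in SmoM2 and 4, 5 and 6 in WT, a log2 change of 0.63 ± 0.12 (SE) for SmoM2 against WT (adjusted p = 0.012, limma). Loxl1, a lysyl oxidase that crosslinks matrix, had 4, 3 and 3 in SmoM2-Sox9cKO, 2, 2 and 2 in SmoM2 and 4, 4 and 4 in WT, a log2 change of -0.97 ± 0.13 (adjusted p = 0.00196). P4ha2, a prolyl hydroxylase, fell by 0.72 on the log2 scale in SmoM2 (adjusted p = 0.0253). In SmoM2-Sox9cKO against WT, Pcolce2 was higher and P4ha2 lower, with log2 changes of 0.64 ± 0.12 (adjusted p = 0.0136) and -0.71 ± 0.17 (adjusted p = 0.0352).

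Of 10 collagen receptors 8 were tested. Itga11, the alpha subunit of a collagen-binding integrin, had 3, 4 and 5 open regions in SmoM2-Sox9cKO, 2, 2 and 3 in SmoM2 and 4, 4 and 4 in WT, a log2 change of -0.81 ± 0.20 (SE) for SmoM2 against WT (adjusted p = 0.0354, limma). Itgb1, the shared beta subunit, was higher in SmoM2-Sox9cKO against WT, with a log2 change of 0.30 ± 0.08 (adjusted p = 0.0494). Of 14 collagen-binding matrix proteins 11 were tested. Fn1, for fibronectin, had 1 open region in each SmoM2-Sox9cKO and each SmoM2 library and 2, 3 and 3 in WT, log2 changes of -1.18 ± 0.13 for SmoM2 against WT (adjusted p = 0.000818) and -1.12 ± 0.13 for SmoM2-Sox9cKO against WT (adjusted p = 0.00145). Tnxb, for tenascin-X, was higher in SmoM2-Sox9cKO against WT, with a log2 change of 0.66 ± 0.16 (adjusted p = 0.0408). No gene of the 3 lists passed in SmoM2-Sox9cKO against SmoM2, where 0.853% of all tested loci did.

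Markers of the main collagen-making cells were counted beside these results. Over 15 fibroblast markers, summed open regions were 44 to 58 in SmoM2-Sox9cKO, 49 to 53 in SmoM2, 36 to 50 in WT and 3 to 10 in Embryo, with Lum at 0 in every library. Of the 12 tested, 2 were higher and 1 lower in SmoM2-Sox9cKO against WT (3.99% and 3.42% of all tested loci). In SmoM2 against WT, 2 were higher and 2 lower (5.2% and 5.75%). The same shares of all tested loci stand beside the counts of every marker list below. Twist2 had 6, 6 and 7 open regions in SmoM2 and 0, 1 and 1 in WT, while Dpt had 3, 1 and 0 in SmoM2 and 6, 5 and 5 in WT. Over 12 endothelial markers the sums were 84 to 86 in SmoM2-Sox9cKO, 72 to 88 in SmoM2, 61 to 77 in WT and 7 to 20 in Embryo, with 3 higher and 2 lower of 12 in SmoM2 against WT (5.2% and 5.75% of all tested loci) and 5 higher and 1 lower in SmoM2-Sox9cKO against WT (3.99% and 3.42%). Over 12 muscle markers they were 17 to 28 in SmoM2-Sox9cKO, 17 to 27 in SmoM2, 25 to 28 in WT and 0 to 5 in Embryo, with 0 higher and 1 lower of 8 tested in SmoM2 against WT and 0 and 2 in SmoM2-Sox9cKO against WT. Over 12 cartilage markers they were 74 to 91 in SmoM2-Sox9cKO, 82 to 108 in SmoM2, 68 to 72 in WT and 10 to 28 in Embryo, with 0 called in SmoM2-Sox9cKO against WT and 1 higher in SmoM2 against WT. The sums of 10 immune markers were 17 to 21 in SmoM2-Sox9cKO, 17 to 21 in SmoM2, 12 to 18 in WT and 2 in both Embryo libraries. Ptprc had 1, 1 and 1 open regions in SmoM2-Sox9cKO, 6, 1 and 2 in SmoM2 and 0 in every WT and Embryo library, and it reached the filter through SmoM2 alone, so its test is not read. Over 10 markers of glia and neurons the sums were 24 to 31 in SmoM2-Sox9cKO, 23 to 25 in SmoM2, 22 to 29 in WT and 1 to 11 in Embryo, with 1 higher and 1 lower in each comparison with WT. The 7 simple epithelial markers summed to 17 to 22 in SmoM2-Sox9cKO, 18 to 23 in SmoM2, 16 to 18 in WT and 7 to 14 in Embryo, and none was called. The part of other cell types in the collagen results was not tested.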

How the data were processed

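ATAC-seq peak lists of sorted esophageal cells were used, 1 for each of 11 libraries. Per the submitters' processing notes, Trimmomatic, Bowtie2, Picard, MACS2 and deepTools were used on GRCm38/mm10; their versions are not stated. Each peak carries values deposited by the authors: a score, not used here, a fold enrichment, the −log10 p-value and q-value, and the summit's position.

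Lines that listed the same interval once per summit were joined, intervals off chromosomes 1 to 19 and X were dropped, and overlapping intervals of the 11 lists became 124941 regions with a median width of 693 bp. Of these, 111956 (89.6%) were assigned by their midpoint to the protein-coding gene body nearest to it, up to 100 kb away (GRCm38.p6 RefSeq table, shortest body where several hold the midpoint). Coordinates are 1-based. The limma test (R 4.3.3, limma 3.58.1) used log2((open regions + 0.5) / (library total + 1) × 100000), 3 groups in one fit, variance trend on, and Benjamini-Hochberg adjustment at 0.05. On simulated data it recovered larger changes more often than smaller ones and called more unchanged loci than the nominal rate.

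The members, gene lists and alternatives were chosen with earlier results of these data known. Values in every library are given for loci with adjusted p under 0.05, for the keratinocyte, main fibrillar and cartilage chains, and for up to 5 loci per direction and comparison with the largest change among non-overlapping groups. Regions are named by nearness to a gene end (1 kb) or by peak rank, up to 10 per direction and comparison. Col5a2, Col6a2, Col8a1, Col9a2, Col13a1, Col15a1, Col18a1, Col19a1, Col24a1, the Embryo regions and the windows printed were chosen after their values were seen.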

Additional observations from a re-analysis of the deposited data

How the results depend on the processing

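Col14a1 and Col6a5 kept their direction and their call in both comparisons with WT under all 22 alternatives. No collagen locus was called in opposite directions by different settings of the same comparison. Changes without a call could switch sign. The log2 change of Col27a1 in SmoM2-Sox9cKO against WT was -0.23 and became 0.04 on covered base pairs. The cause of the shifts below was not tested. For SmoM2 against WT, collagen loci called lower (3) numbered 5 on covered base pairs (Col6a3, Col23a1, Col13a1, Col15a1 and Col24a1, without Col27a1), and 0 without scaling or with Y-linked intervals as a covariate, and 0 to 4 without 1 library; those called higher (2) numbered 2 to 3 without 1 library. All loci called (1683) numbered 2850, 1104 and 727 under the same 3 settings and 1110 to 1689 without 1 library (1110 without SmoM2 1). Without scaling they split into 763 higher and 341 lower (main 799 and 884), and those of SmoM2-Sox9cKO against WT into 508 and 261 (main 613 and 525). Collagen regions lost (12) numbered 4 at −log10 q of at least 5 and 12 to 18 without 1 library, and those gained (22) numbered 22 to 26. The collagen loci called lower at −log10 q of at least 5 were Col6a3, Col24a1 and Col6a1.

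For SmoM2-Sox9cKO against SmoM2, collagen loci called higher (0) numbered 1 on covered base pairs (Col23a1), 1 with the replicate block (Col26a1) and 0 to 2 without 1 library (Col23a1 and Col7a1 without SmoM2-Sox9cKO 1). All loci called (131) numbered 41 at −log10 q of at least 5, 63 with 50% of the region covered, 223 with no filter, 55 with a mean of at least 3 regions, 211 on covered base pairs, 75 with the replicate block, 34 with the Y-linked covariate and 28 to 177 without 1 library (33 without SmoM2 1, 47 without SmoM2 2, 28 without SmoM2-Sox9cKO 3). With only the 6 libraries compared, 99 were called, 70 higher and 29 lower. Collagen regions gained (4) numbered 2 at −log10 q of at least 5, 8 with lists of equal length and 4 to 12 without 1 library, and those lost (1) numbered 2 with lists of equal length and 1 to 6 without 1 library.

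For SmoM2-Sox9cKO against WT, collagen loci called lower (0) numbered 1 with no filter (Col9a1), 1 on covered base pairs (Col15a1) and 1 with only the 6 libraries compared (Col9a1); those called higher (2) numbered 2 to 3 without 1 library. All loci called (1138) numbered 2166 on covered base pairs and 758 to 1121 without 1 library (758 without SmoM2-Sox9cKO 2). Collagen regions lost (8) numbered 0 at −log10 q of at least 5 and 9 to 13 without 1 library, and those gained (18) numbered 18 to 24. Collagen regions open in both Embryo libraries (14) numbered 5 at −log10 q of at least 5 and 2 with 50% of the region covered, and 18 and 33 were open in either library alone.

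Genes called in any comparison in the maturation list (3) numbered 6 at −log10 q of at least 5, 6 with 50% covered, 1 with a 20 kb locus, 11 on covered base pairs and 2 to 5 without 1 library. Receptors (2) numbered 0 with lists of equal length, without scaling or with the Y-linked covariate, 1 at −log10 q of at least 5, with a pseudocount of 1, a 20 kb locus, only the 6 libraries or the replicate block, 4 on covered base pairs and 0 to 1 without 1 library. Matrix proteins (2) numbered 1 at −log10 q of at least 5, with 50% covered, a mean of at least 3 regions or only the 6 libraries, and 1 to 2 without 1 library.

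Replicate numbers did not pair the libraries: deviations of same-numbered libraries correlated between -0.0672 and 0.0802 (9 pairs) and those of others between -0.118 and 0.117 (18 pairs), and with the replicate block Col23a1 no longer passed in SmoM2 against WT (adjusted p = 0.0513), which left 2 loci lower there. The planned covariate, presence of intervals on the Y chromosome, could not be fitted because every library has some, and the presence of intervals at 4 Y-linked genes was used instead, chosen after seeing the data. The lists carry no read numbers, and weak regions missed in shorter lists cannot be told from closed ones.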
